A study of Homo sapiens with 6 samples.

Results

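The integrin and laminin genes were examined by RNA-seq in the human osteosarcoma line U2OS after knockdown of LSD1. LSD1 is a histone lysine demethylase encoded by KDM1A. The genes were taken by symbol, as all rows of the deposited gene table named ITGA or ITGB with a number, LAMA, LAMB or LAMC with a number, or ITGAV, ITGAE, ITGAL, ITGAM or ITGAX. This gave 36 of 15585 genes, 24 integrins and 12 laminins. Both groups were U2OS cells transfected for 48 h, with control siRNA (siCTR) in 3 libraries and with LSD1 siRNA (siLSD1) in 3 libraries. The labels do not say that the libraries of a group came from separate cultures, so the p-values measure only the spread between these libraries, which may be technical.

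Integrins are receptors made of 1 α and 1 β subunit that hold cells to the extracellular matrix and link it to actin through talin, kindlin and vinculin. The α subunit largely decides the ligand, and β1 pairs with more α subunits than any other β. Laminins are cross-shaped trimers of an α, a β and a γ chain that form the basement membrane sheet, together with type IV collagen, nidogens and perlecan. The integrins with α3, α6 or α7 bind laminins, those with α1, α2, α10 or α11 bind collagens, and those with α5, αV or αIIb bind the RGD motif of fibronectin, vitronectin and related proteins.

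The libraries held 12513511 to 13561344 counted reads. The reads on KDM1A numbered 6140, 6493 and 6573 in siCTR against 1110, 1198 and 1246 in siLSD1, a log2 fold change of −2.44 (standard error, SE, 0.11, adjusted p = 2.27e-07, edgeR with Benjamini-Hochberg adjustment). Of the mesenchymal marker genes, VIM made up nearly all of a summed level of 747 to 892 CPM (read counts relative to the TMM-scaled library total) in siCTR and 755 to 874 CPM in siLSD1, while the bone regulator RUNX2 had at most 4 reads and the bone matrix gene SPARC at most 3 reads in any library. RUNX2 and SPARC were nearly absent here, but other markers of the list were not. The collagen gene COL1A1 had 122 to 200 reads per library, TWIST1 had 9 to 32 and THY1 had 4 to 17. The epithelial keratins KRT8 and KRT18 were abundant, so that 6 epithelial markers summed to 2958 to 3581 CPM in siCTR and 2437 to 3035 CPM in siLSD1, nearly all of it from these keratins. KRT18 was at 1052, 1297 and 1018 CPM in siCTR and 983, 908 and 809 CPM in siLSD1, without overlap (log2 fold change −0.32, adjusted p = 0.268, edgeR with Benjamini-Hochberg adjustment, between 0.0326 and 0.612 over the alternatives). EPCAM was low and KRT5 had at most 1 read. CDH1, E-cadherin, was at 7.32, 6.23 and 4.91 CPM in siCTR and 11.5, 9.39 and 10.6 CPM in siLSD1, without overlap and opposite in direction to the sum (1.71-fold, adjusted p = 0.0699, and 0.0296 after each library was corrected for GC and length, edgeR with Benjamini-Hochberg adjustment, between 0.00299 and 0.253 over the alternatives). The leukocyte genes PTPRC and LYZ had at most 1 read each. The endothelial genes PECAM1 and TEK had at most 3 reads each, although 4 endothelial markers summed to 5.14 to 8.55 CPM in siCTR and 11.9 to 13.7 CPM in siLSD1, most of it VWF. VWF, a platelet adhesion protein, was at 7.93, 4.91 and 6.62 CPM in siCTR and 11.3, 12.9 and 11.5 CPM in siLSD1, without overlap (1.83-fold, adjusted p = 0.0418, edgeR with Benjamini-Hochberg adjustment, between 0.000400 and 0.181 over the alternatives). With a library left out it passed only without siCTR replicate 1. The part of these markers in the results was not tested. The libraries also differed in their share of reads from GC-rich genes. The quartile of tested genes highest in GC lay 0.15, 0.00 and −0.04 from its 6-library mean on the log2 scale in siCTR replicates 1, 2 and 3, and 0.17, 0.02 and −0.30 in siLSD1 replicates 1, 2 and 3.

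The windows at the start of ITGB1 and ITGA2 are shown because these genes had the smallest p-values of the family, and their values differed in opposite directions. ITGB1, the common β subunit, lies on chromosome 10 (32887273 to 33005792, minus strand, GRCh38), and ITGA2, the α subunit of the collagen receptor, on chromosome 5 (52989340 to 53094779, plus strand). The sequences are RefSeq's on GRCh38.p14, run 5′ to 3′ on the strand of the gene from 250 bases before to 50 bases after the start, and capitals mark each match to the GC box GGGCGG on either strand. The window of ITGB1 is chr10:32958181-32958480 (78.3% GC, 3 matches) and that of ITGA2 is chr5:52989102-52989401 (72.7% GC, 4 matches).
ITGB1: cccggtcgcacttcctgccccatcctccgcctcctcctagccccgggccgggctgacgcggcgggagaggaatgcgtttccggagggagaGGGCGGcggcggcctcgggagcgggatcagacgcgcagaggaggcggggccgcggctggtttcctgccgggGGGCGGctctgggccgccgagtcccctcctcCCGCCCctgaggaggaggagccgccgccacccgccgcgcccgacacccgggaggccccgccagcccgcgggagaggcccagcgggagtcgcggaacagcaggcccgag
ITGA2: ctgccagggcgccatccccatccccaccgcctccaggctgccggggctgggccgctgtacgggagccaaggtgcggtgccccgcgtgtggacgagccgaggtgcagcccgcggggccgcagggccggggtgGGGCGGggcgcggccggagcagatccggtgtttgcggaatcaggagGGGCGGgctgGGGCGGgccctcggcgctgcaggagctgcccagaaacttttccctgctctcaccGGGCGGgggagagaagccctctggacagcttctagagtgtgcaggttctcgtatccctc
A second RefSeq start of ITGB1, at chr10:32935509-32935808, held 40.7% GC and 0 matches. Of 35116 such windows over all genes, 45% held the motif, and a match is a description of letters and not of a bound site. A window was found for 25 of the 36 integrin and laminin genes, and 13 of these held the motif. Both genes shown carry it, at values that differed in opposite directions.

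ITGB1 and the chains LAMA5, LAMC1 and LAMB1 had the highest levels of the family. Levels of different genes were compared as deposited FPKM, which are reads scaled to the length of the gene and to the reads counted in the library. ITGB1 was at 127.6 ± 6.63 FPKM (SD, n = 3) in siCTR and 163 ± 15.8 FPKM (SD, n = 3) in siLSD1, which is the 98.1th percentile of all listed genes over the 6 libraries. It held 73.7% of the summed FPKM of all β subunits in siCTR. ITGB5, the β subunit of the vitronectin receptor, followed at 36.0 ± 0.539 FPKM (SD, n = 3) in siCTR. Among the α subunits the order in siCTR was ITGA3 at 29.0 ± 3.75 FPKM, ITGA5 at 23.2 ± 3.46 FPKM, ITGA6 at 16.9 ± 1.07 FPKM, ITGAV at 15.2 ± 1.07 FPKM and ITGA1 at 10.4 ± 1.26 FPKM (SD, n = 3 each). ITGA3 was above ITGA5 in all 6 libraries. ITGA6 was above ITGAV in every siCTR library and below it in every siLSD1 library. ITGA2, at 3.47 ± 0.538 FPKM (SD, n = 3), was far lower than these.

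LAMA5 was the main laminin α chain, at 113.8 ± 40.1 FPKM (SD, n = 3) in siCTR and 84.1% of the summed FPKM of the α chains. LAMA1 was next, with 14.1% of that sum in siCTR and 20.1% in siLSD1. LAMB1 held 70.7% of the laminin β sum and LAMC1 held 90.6% of the laminin γ sum in siCTR. LAMC1, at 54.6 ± 9.0 FPKM, and LAMB1, at 51.9 ± 3.02 FPKM (SD, n = 3 each), changed order between the siCTR libraries. In all 6 libraries, 18 genes reached at least 1 FPKM, 10 integrins and 8 laminins. Of 24 known integrin pairs, 8 had both subunits at that level, namely β1 with α1, α2, α3, α5, α6 or αV, together with αVβ5 and α6β4. Of 15 known laminin trimers, 7 had all chains at that level, which included the embryonic trimer of LAMA1, LAMB1 and LAMC1 and the widespread trimer of LAMA5, LAMB1 and LAMC1.

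**Figure D1:**
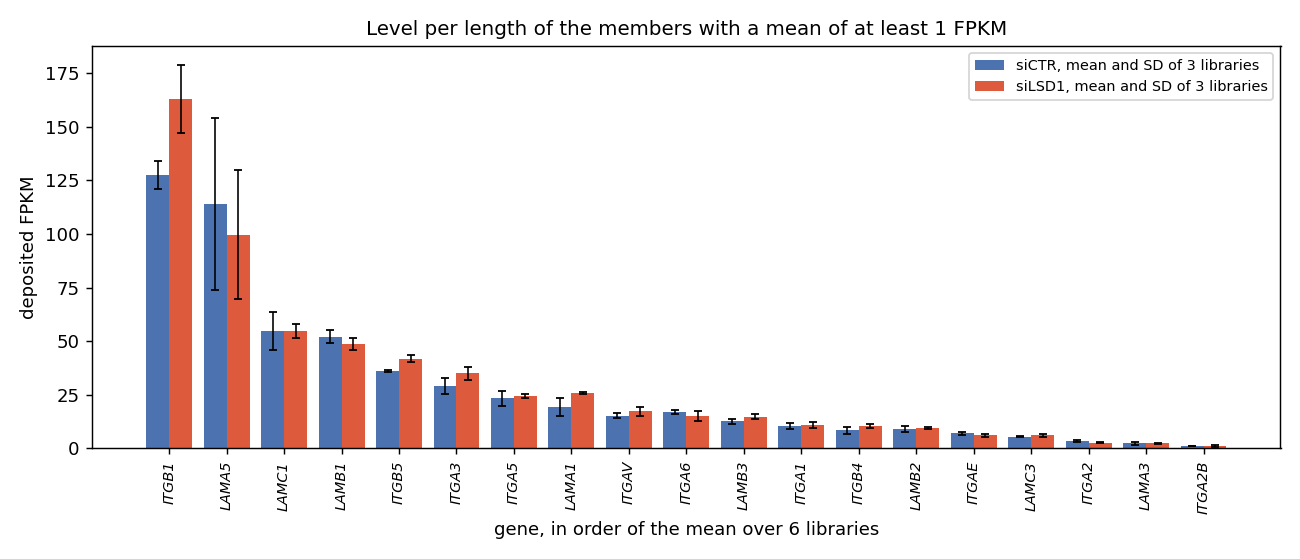
Deposited FPKM of the 19 integrin and laminin genes with a mean of at least 1 FPKM, as bars for the mean of 3 libraries per group and error bars for the SD, in order of the mean over 6 libraries. ITGB1 and LAMA5 stand above the rest, and the error bars of LAMA5 are the widest.

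Knockdown of LSD1 was compared with control siRNA for every gene. Of the 36 genes, 24 passed a filter on low counts, 14 integrins and 10 laminins. In the fit without covariates, none passed an adjusted p under 0.05 (0 of 24, also 0 with DESeq2 and with limma-voom), against 1.44% of the 11844 genes tested, of which 1.07% were higher and 0.371% lower in siLSD1. At an unadjusted p under 0.05 there were 5, 4 higher and 1 lower, or 20.8% of the 24, against 14.0% of all genes, of which 7.48% were higher and 6.55% lower. The log2 fold change was above 0 for 17 and below 0 for 7 genes, with a median of 0.12 against −0.01 over all genes tested. The 3 siCTR and 3 siLSD1 libraries did not overlap for 8 genes, 7 higher and 1 lower, or 33.3%, against 21.4% of all genes. ITGA7 is among the higher genes in these counts, although it passed the filter only through the siLSD1 libraries. Among the other 23 genes, a subset chosen after its values were seen, 3 were higher and 1 lower at an unadjusted p under 0.05 (17.4%), 6 were higher and 1 lower without overlap (30.4%), and the median log2 fold change was 0.08. The 95% confidence interval of the log2 fold change lay within ±0.5 for 11 of 24 genes, so a difference beyond that size was outside the interval for those genes only. In a bulk library, fewer cells of a type and less RNA per cell cannot be told apart. With 1 library left out, the count at the unadjusted threshold was between 3, without siLSD1 replicate 2 (8.86% of all genes), and 9, without siLSD1 replicate 3 (13.7% of all genes). When the trend of each library with GC content and gene length was removed, 4 genes passed the adjusted threshold, ITGB1, LAMA1 and ITGA3 as higher and ITGA2 as lower, but 7.30% of all genes then passed as well. At the unadjusted threshold 12 passed with this correction, against 24.3% of all genes, the added genes being ITGA6, ITGAE, ITGB4, ITGB5, LAMB1, LAMB3 and LAMC3. The corrected log2 fold changes were 0.32 for ITGB1 (adjusted p = 0.0187), 0.31 for LAMA1 (adjusted p = 0.0361), 0.31 for ITGA3 (adjusted p = 0.0325) and −0.52 for ITGA2 (adjusted p = 0.0105) (edgeR with Benjamini-Hochberg adjustment).

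**Figure D2:**
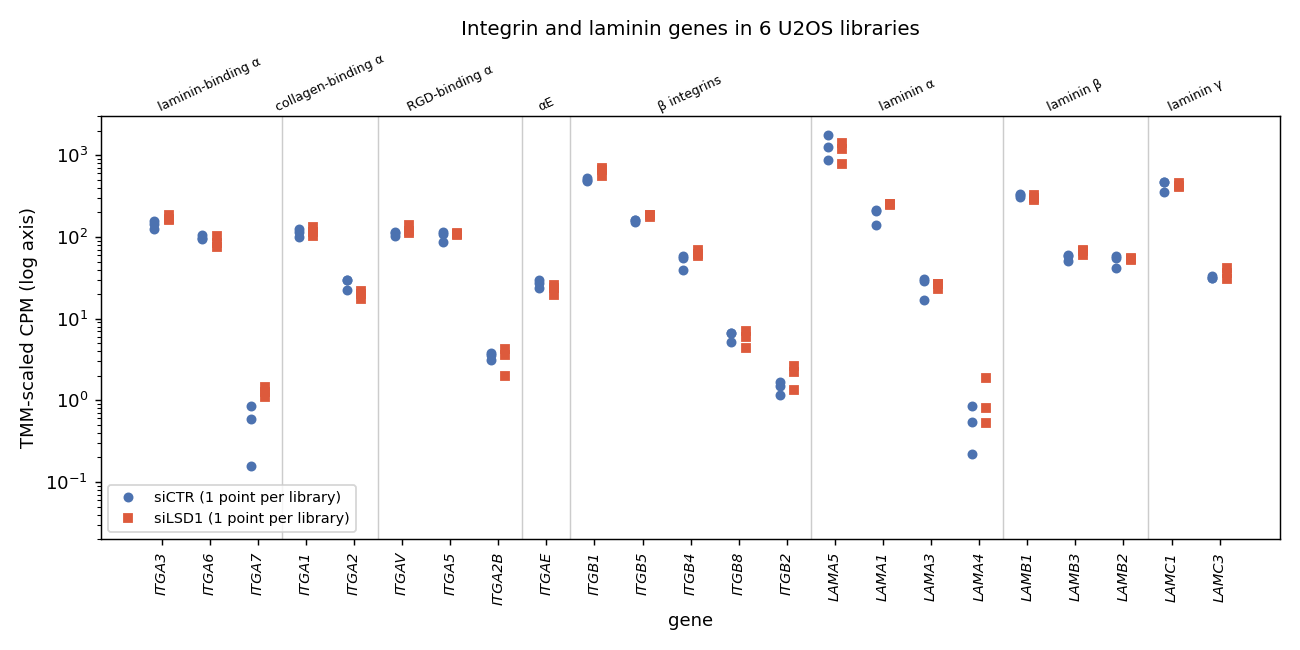
TMM-scaled CPM on a log axis of tested integrin and laminin genes, with 1 point per library and genes grouped by the role of the subunit. The siLSD1 points of ITGB1, ITGB5, ITGB4, ITGA3, ITGA7, LAMA1 and LAMB3 lie above the siCTR points, and those of ITGA2 lie below.

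The β subunits with the most reads were all higher in siLSD1, at 1.28-fold for ITGB1, 1.16-fold for ITGB5 and 1.24-fold for ITGB4, and none passed the adjusted threshold. ITGB1 was at 481, 494 and 531 CPM in the siCTR libraries and 566, 662 and 695 CPM in the siLSD1 libraries. All siLSD1 libraries were above all siCTR libraries. The log2 fold change was 0.35 (SE 0.11, 95% confidence interval 0.11 to 0.60, unadjusted p = 0.00881, adjusted p = 0.176, edgeR with Benjamini-Hochberg adjustment), or 1.28-fold. Over the alternatives tried, its adjusted p was between 0.0102 and 0.549, and its unadjusted p was at most 0.045 with any 1 library left out.

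ITGB5, on chromosome 3, was at 154, 159 and 160.0 CPM in siCTR and 187, 185 and 176 CPM in siLSD1, again without overlap (log2 fold change 0.21, SE 0.10, adjusted p = 0.372, edgeR with Benjamini-Hochberg adjustment). ITGB4, the long-tailed β subunit of hemidesmosomes, was at 57.8, 39.4 and 56.1 CPM in siCTR and 69.9, 61.2 and 58.6 CPM in siLSD1. Its groups did not overlap, with the nearest values 57.8 and 58.6 CPM, and its log2 fold change was 0.31 (SE 0.15, adjusted p = 0.385, edgeR with Benjamini-Hochberg adjustment, between 0.00719 and 0.639 over the alternatives). Without siCTR replicate 2 the log2 fold change was 0.15, and with the GC and length correction it was 0.40. ITGB2, the β subunit of leukocyte integrins, was counted 22, 15 and 20 times in siCTR against 35, 28 and 18 times in siLSD1, which overlap. ITGB8, an αV partner that binds latent TGFβ, was between 4.40 and 6.97 CPM in all libraries with a log2 fold change of −0.08. The summed FPKM of all β subunits was 167 to 182 in siCTR and 201 to 227 in siLSD1, and that of all α subunits was 94.9 to 112 in siCTR and 110 to 115 in siLSD1. The ratio of ITGB1 to the sum of its 11 listed α partners was 1.18, 1.44 and 1.30 in siCTR and 1.38, 1.64 and 1.61 in siLSD1, so the groups overlapped.

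The laminin-binding α subunits did not share a direction. ITGA3 (chromosome 17, 50055968 to 50090481, plus strand), the α subunit of the laminin receptor α3β1, was at 158, 125 and 142 CPM in siCTR and 186, 165 and 161 CPM in siLSD1. The siLSD1 libraries were all above, and the log2 fold change was 0.27 (SE 0.12, 95% confidence interval 0.01 to 0.53, unadjusted p = 0.0426, adjusted p = 0.331, edgeR with Benjamini-Hochberg adjustment, between 0.0105 and 0.629 over the alternatives). The unadjusted p stayed under 0.05 in the fits without siCTR replicate 1 and without siLSD1 replicate 3, and it was up to 0.149 in the other 4 that left out a library. ITGA6, which pairs with β1 or β4, was at 98.2, 93.9 and 105 CPM in siCTR and 75, 84.9 and 104 CPM in siLSD1. Those groups overlapped, because siLSD1 replicate 3 lay at the level of siCTR (log2 fold change −0.17, SE 0.13, adjusted p = 0.584, edgeR with Benjamini-Hochberg adjustment, between 0.0521 and 0.865 over the alternatives). The log2 fold change was −0.07 without siLSD1 replicate 1, −0.31 without siLSD1 replicate 3 and −0.23 with the GC and length correction. With that correction 4 further integrins passed before adjustment, ITGB4 (unadjusted p = 0.00562), ITGA6 (unadjusted p = 0.0119), ITGB5 (unadjusted p = 0.0227) and ITGAE (unadjusted p = 0.0470), and none of these 4 passed after it (edgeR with Benjamini-Hochberg adjustment).

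ITGA7 (chromosome 12, 55684568 to 55716404, minus strand), the α subunit of the muscle laminin receptor, was low, with 11, 2 and 8 reads in siCTR against 17, 18 and 15 in siLSD1. It reached the level of the filter in 1 siCTR and 3 siLSD1 libraries, so it entered the test through the group in which it was higher. Its fitted log2 fold change was 1.24, or 0.82 without siCTR replicate 2, and it is given as a description with no test. The level was below 1 FPKM throughout. BLOC1S1 overlaps ITGA7 on the opposite strand, with up to 129 reads.

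Of the tested collagen-binding α subunits, ITGA2 and ITGA1, ITGA2 was lower in all siLSD1 libraries. It was at 29.6, 22.7 and 29.5 CPM in siCTR and 17.6, 20.0 and 22.1 CPM in siLSD1. The nearest libraries of the groups, at 22.7 and 22.1 CPM, were close. The log2 fold change was −0.46 (SE 0.15, 95% confidence interval −0.78 to −0.13, unadjusted p = 0.00939, adjusted p = 0.182, edgeR with Benjamini-Hochberg adjustment, between 0.00628 and 0.487 over the alternatives). ITGA1, whose gene lies next to ITGA2 on chromosome 5, was at 114, 98.7 and 124 CPM in siCTR and 102, 116 and 132 CPM in siLSD1. Its groups overlapped, and its log2 fold change of 0.05 (SE 0.13) turned to −0.03 with the GC and length correction. The gene PELO lies within ITGA1 on the same strand, with up to 882 reads.

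The groups overlapped for each of the RGD-binding α subunits. ITGAV, which pairs with several β subunits, was at 113, 102 and 115 CPM in siCTR and 112, 119.6 and 142 CPM in siLSD1 (log2 fold change 0.18, SE 0.12, adjusted p = 0.527, edgeR with Benjamini-Hochberg adjustment). Its log2 fold change was 0.08 without siLSD1 replicate 3. ITGA5, the fibronectin receptor subunit, was at 109, 86.7 and 114 CPM in siCTR and 112, 108 and 106 CPM in siLSD1 (log2 fold change 0.08, SE 0.12). ITGA2B, the platelet subunit, was between 2.0 and 4.25 CPM, and ITGAE, a lymphocyte subunit that binds E-cadherin, was between 19.7 and 30.0 CPM. Their log2 fold changes were −0.10 and −0.23, and the groups of ITGAE overlapped as well. For ITGAE the log2 fold change was −0.13 without siLSD1 replicate 3, −0.15 without siCTR replicate 2 and −0.32 without siLSD1 replicate 1. HASPIN overlaps ITGAE on the opposite strand, with up to 445 reads, and ITGAE itself had 266 to 385.

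LAMA1 had the largest difference among the laminins with over 50 CPM. LAMA1, the α chain of the early embryonic basement membrane (chromosome 18, 6941742 to 7117797, minus strand), was at 217, 142 and 207 CPM in siCTR and 256, 248 and 254 CPM in siLSD1. The siLSD1 libraries were all above and close together, and siCTR replicate 2 was the lowest of all. The log2 fold change was 0.42 (SE 0.15, 95% confidence interval 0.11 to 0.74, unadjusted p = 0.0124, adjusted p = 0.202, edgeR with Benjamini-Hochberg adjustment, between 0.00625 and 0.460 over the alternatives), or 1.34-fold. It was between 0.26 and 0.53 with 1 library left out, and the lowest value came without siCTR replicate 2.

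LAMA5, the main α chain of adult basement membranes (chromosome 20, 62307955 to 62367312, minus strand), had the widest spread in CPM. It was at 1757, 872 and 1267 CPM in siCTR and 1434, 1203 and 774 CPM in siLSD1. The groups overlapped, with the highest value in siCTR replicate 1 and the lowest in siLSD1 replicate 3. The log2 fold change was −0.19 (SE 0.24, 95% confidence interval −0.71 to 0.32, adjusted p = 0.755, edgeR with Benjamini-Hochberg adjustment), so a difference of up to 0.71 lower was inside the interval. Without siCTR replicate 1 the log2 fold change was 0.09. Its transcript has 66.4% GC, and siLSD1 replicate 3 was lowest both for LAMA5 and for the GC-rich quartile. siCTR replicate 2, the next lowest for LAMA5 at −0.43 from its 6-library log2 mean, was at 0.00 for that quartile. With the GC and length correction its log2 fold change was −0.09 and the SE fell to 0.12. ADRM1 overlaps it on the opposite strand, with up to 2981 reads. LAMA3 was between 17.1 and 30.6 CPM with a log2 fold change of 0.00 (SE 0.19), and its groups overlapped. LAMA4 had 11, 7 and 3 reads in the siCTR and 7, 10 and 25 in the siLSD1 libraries, which overlap, and a log2 fold change of 0.98 (SE 0.58). This was 0.29 without siLSD1 replicate 3, 0.60 without siCTR replicate 3, 1.31 without siLSD1 replicate 1 and 1.46 without siCTR replicate 1.

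**Figure D3:**
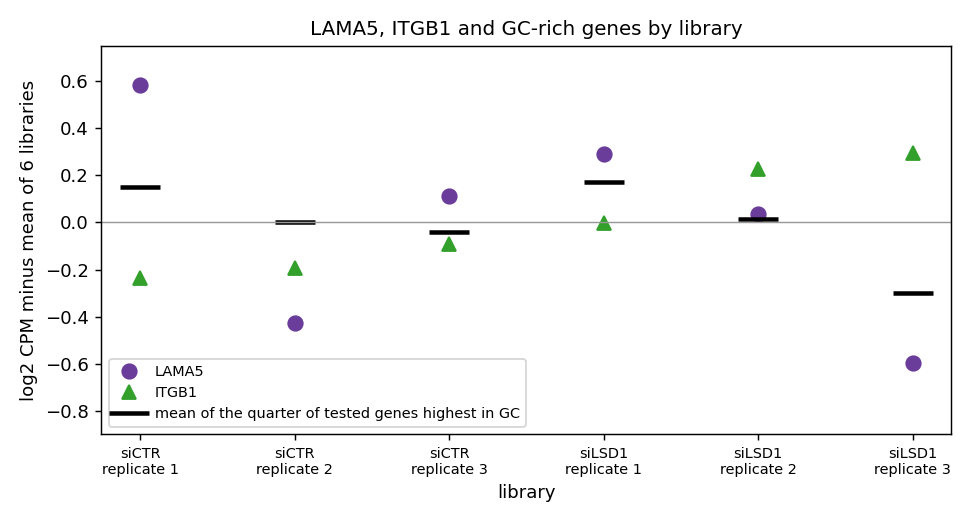
Log2 CPM minus its mean over the 6 libraries for LAMA5 and ITGB1, with bars for the mean of the quartile of tested genes highest in GC, by library. LAMA5 runs from 0.58 in siCTR replicate 1 to −0.60 in siLSD1 replicate 3, while ITGB1 is near 0.00 or above it in the siLSD1 libraries and below it in the siCTR libraries.

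The laminin β and γ chains showed small differences. LAMB1 was at 328, 306 and 336 CPM in siCTR and 286, 297 and 323 CPM in siLSD1 (log2 fold change −0.10, SE 0.11, between −0.15 and −0.06 with 1 library left out), and its groups overlapped. LAMB3, the β chain of the epithelial anchoring laminin, was at 59.9, 50.7 and 57.9 CPM in siCTR and 69.2, 68.3 and 60.8 CPM in siLSD1, without overlap (log2 fold change 0.23, SE 0.12, adjusted p = 0.409, edgeR with Benjamini-Hochberg adjustment). LAMB2, the β chain of the glomerular and neuromuscular basement membranes, was at 58.1, 42.0 and 55.1 CPM in siCTR and 54.4, 55.9 and 51.7 CPM in siLSD1 (log2 fold change 0.06, SE 0.14). Its groups overlapped, with siCTR replicate 2 lowest. LAMC1, the γ chain of most trimers, was at 465, 354 and 473 CPM in siCTR and 407, 424 and 462 CPM in siLSD1. The groups overlapped, and its log2 fold change was 0.00 with a 95% confidence interval of −0.28 to 0.28. LAMC3 was between 31.0 and 41.2 CPM with overlapping groups and a log2 fold change of 0.17, which became 0.06 when siLSD1 replicate 1 was left out and 0.27 when siLSD1 replicate 3 was. In this fit LAMA1 alone of the laminins had an unadjusted p under 0.05. With the GC and length correction LAMB3 (0.25, unadjusted p = 0.00805), LAMB1 (−0.19, unadjusted p = 0.0326) and LAMC3 (0.20, unadjusted p = 0.0478) did as well, on the log2 scale, and none of these passed after adjustment.

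**Figure D4:**
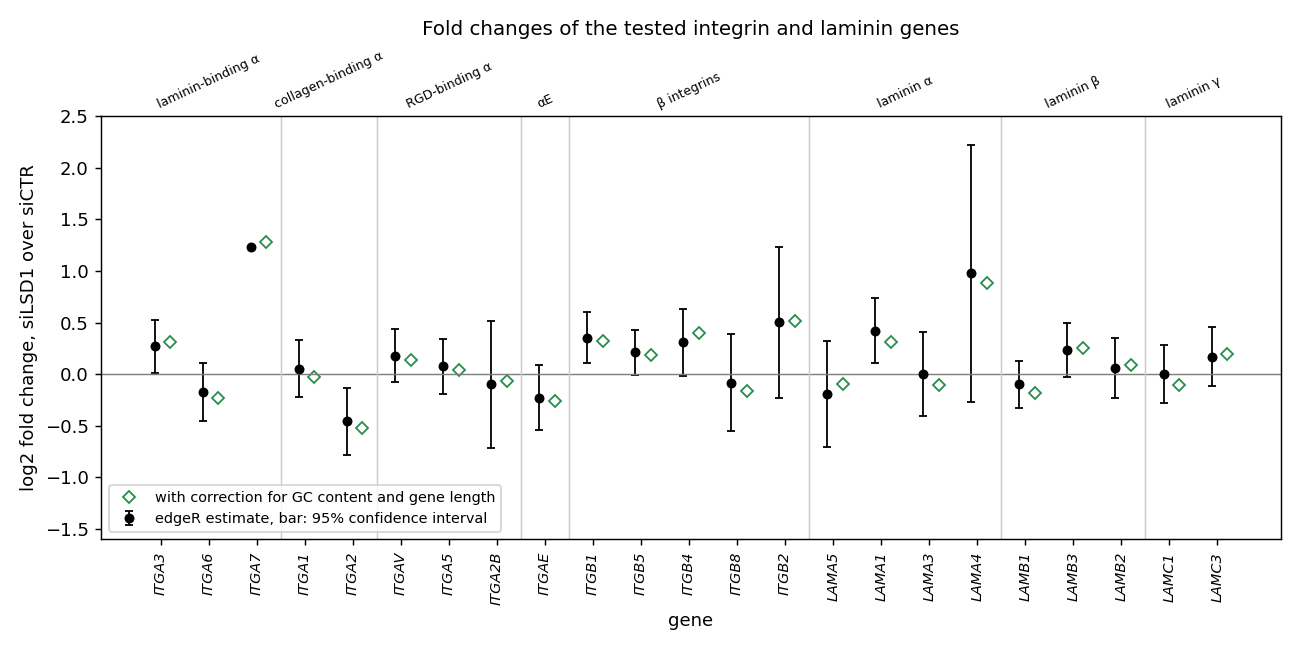
Log2 fold change, siLSD1 over siCTR, of tested integrin and laminin genes with 95% confidence intervals from edgeR, and the estimate after correction for GC content and gene length as open diamonds. ITGA7 is drawn without an interval because it passed the filter only through siLSD1. The intervals of ITGB1, ITGA3 and LAMA1 lie above 0 and that of ITGA2 below 0, and the widest belong to the genes with few reads.

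The other 12 genes did not pass the filter and had at most 11 reads in any library. They were the leukocyte subunits ITGAL, ITGAM, ITGAX, ITGA4 and ITGB7, the epithelial subunit ITGB6, the collagen-binding ITGA10 and ITGA11, ITGA9, ITGB3, LAMA2 and LAMB4. ITGA9, an α subunit that binds tenascin, was counted 1, 1 and 3 times in siCTR against 10, 7 and 5 times in siLSD1. In sums over a group this was 5 against 22 reads, or 0.127 (Poisson 95% interval 0.0413 to 0.297) against 0.559 (0.350 to 0.846) CPM of unscaled counts. ITGB3, the β subunit of the classical vitronectin receptor, was counted 5, 1 and 1 times in siCTR against 6, 10 and 7 times in siLSD1, or 7 against 23 in all. Their libraries did not overlap. Both failed the filter, and in the fit without it their unadjusted p-values were 0.0160 and 0.0375, with adjusted p-values of 0.245 and 0.352 (edgeR with Benjamini-Hochberg adjustment). The intervals cover counting error only. ITGB6 had 16 and 17 reads, LAMA2 20 and 20, ITGA10 14 and 14, and ITGA11 8 and 9 in siCTR and siLSD1. ITGA4 had 0 reads in siCTR, which allows up to 0.0938 CPM of unscaled counts by the upper Poisson limit, and 1 in siLSD1.

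The proteins that couple integrins to the cytoskeleton and the other matrix ligands of integrins were taken from lists of known genes. Of 58 adhesion partners, 53 were tested, and 1 was higher and 0 lower in siLSD1 at an adjusted p under 0.05, or 1.89% against 1.44% of all genes. At an unadjusted p under 0.05 there were 7 higher and 1 lower, or 15.1% against 14.0% of all genes, and the median log2 fold change was 0.08 against −0.01. The partner that rose was TNS4, a tensin that binds β subunit tails, at 10.3, 6.15 and 8.48 CPM in siCTR and 18.0, 13.0 and 17.1 CPM in siLSD1. Its libraries did not overlap, and its log2 fold change was 0.95 (SE 0.20, adjusted p = 0.0364, edgeR with Benjamini-Hochberg adjustment, between 1.08e-05 and 0.122 over the alternatives). With a library left out it passed without siCTR replicate 1 and without siLSD1 replicate 2 and in no other case. The next by p were the scaffold NEDD9 (log2 fold change 0.60, adjusted p = 0.0795, edgeR with Benjamini-Hochberg adjustment, between 0.00229 and 0.312 over the alternatives) and the actin-linking TES (log2 fold change 0.41, adjusted p = 0.117, edgeR with Benjamini-Hochberg adjustment, between 0.00337 and 0.370 over the alternatives). Neither passed in this fit, and both did with the GC and length correction (adjusted p = 0.0205 for NEDD9 and 0.00882 for TES, edgeR with Benjamini-Hochberg adjustment).

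Some ligands of integrins rose in siLSD1, namely FN1, CCN1, CCN2, TGFBI and THBS1, and ICAM1 fell. Of 46 other basement membrane proteins, laminin receptors and integrin ligands, 34 were tested, and 8 rose and 1 fell in siLSD1 at an adjusted p under 0.05. That is 26.5% against 1.44% of all genes. At an unadjusted p under 0.05, 12 were higher and 2 lower, or 41.2% against 14.0% of all genes, and the median log2 fold change was 0.25 against −0.01. Of the 14 tested integrin ligands outside the basement membrane, the log2 fold change was above 0 for 7 and below 0 for 7. The list was chosen with earlier results of these data known, and no test of the list was made.

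CCN1 and CCN2, secreted matrix proteins that bind integrins, had the smallest p-values among them. CCN1 was at 176, 187 and 181 CPM in siCTR and 344, 323 and 342 CPM in siLSD1 (log2 fold change 0.89, SE 0.10, adjusted p = 0.00149, edgeR with Benjamini-Hochberg adjustment). CCN2 was at 88.0, 99.6 and 89.3 CPM in siCTR and 176, 176 and 168 CPM in siLSD1 (log2 fold change 0.91, SE 0.11, adjusted p = 0.00149, edgeR with Benjamini-Hochberg adjustment). Every siLSD1 library of both genes was far above every siCTR library.

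FN1, fibronectin, was at 29.4, 18.5 and 32.2 CPM in siCTR and 47.7, 48.9 and 58.9 CPM in siLSD1, or 1.94-fold higher (adjusted p = 0.0216, edgeR with Benjamini-Hochberg adjustment). TGFBI, an integrin-binding matrix protein, was 2.33-fold higher, at 3.93, 3.58 and 4.46 CPM against 8.64, 10.4 and 8.90 CPM. COL4A6, a type IV collagen chain of some basement membranes, was 2.65-fold higher, at 9.86, 4.75 and 6.25 CPM against 18.8, 18.9 and 17.6 CPM. Both had an adjusted p of 0.00776 (edgeR with Benjamini-Hochberg adjustment). All siLSD1 libraries of these genes lay above the siCTR libraries.

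SDC4, a heparan sulfate co-receptor of focal adhesions, was at 49.7, 54.5 and 50.9 CPM in siCTR and 83.5, 85.1 and 90.6 CPM in siLSD1, or 1.67-fold higher (adjusted p = 0.0067, edgeR with Benjamini-Hochberg adjustment). NTN4, a netrin that binds laminins, was at 39.4, 38.7 and 39.0 CPM in siCTR and 54.5, 62.6 and 63.6 CPM in siLSD1, or 1.54-fold higher (adjusted p = 0.0198, edgeR with Benjamini-Hochberg adjustment). THBS1, thrombospondin, was at 136, 122.9 and 142 CPM in siCTR and 189, 200.1 and 184 CPM in siLSD1, or 1.43-fold higher (adjusted p = 0.0341, edgeR with Benjamini-Hochberg adjustment). None of these overlapped between the groups. ICAM1, a ligand of leukocyte β2 integrins, fell, from 72.2, 62.5 and 65.1 CPM in siCTR to 46.3, 38.0 and 37.1 CPM in siLSD1 (log2 fold change −0.72, SE 0.13, adjusted p = 0.0157, edgeR with Benjamini-Hochberg adjustment). Its siLSD1 libraries were all below its siCTR libraries. COL4A6, SDC4, CCN1, CCN2 and TGFBI passed in every fit that left out a library. FN1 did not pass without siLSD1 replicate 1 or 3, ICAM1 without siCTR replicate 3 or siLSD1 replicate 2, NTN4 without any siCTR library or siLSD1 replicate 2, and THBS1 passed in 0 of the 6. Their highest adjusted p-values were 0.0541, 0.120, 0.135 and 0.239 in that order (edgeR with Benjamini-Hochberg adjustment).

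**Figure D5:**
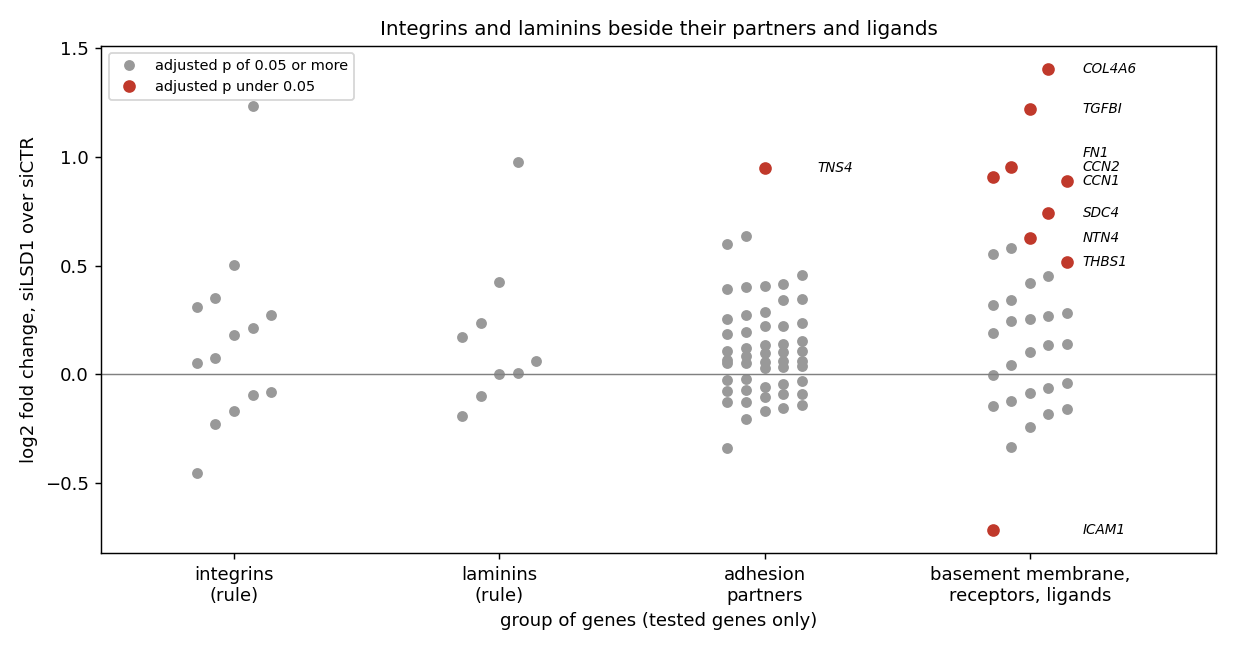
Log2 fold change, siLSD1 over siCTR, of the tested integrins, laminins, adhesion partners and other basement membrane proteins, laminin receptors and integrin ligands, with 1 point per gene and points spread sideways for sight only. Red points have an adjusted p under 0.05: 0 integrins and laminins, 1 adhesion partner (TNS4) and 9 ligands and receptors.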

How the data were processed

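RNA was sequenced from 6 libraries of U2OS cells, grouped by their labels. Alignment was by STAR. The authors deposited whole-number read counts of each gene, not normalized, and FPKM values, which the authors scaled to gene length and counted reads. The genome build, annotation, counter and its strand setting are not given in the sources used here. In GENCODE release 44, 19 of the 24 tested genes overlap a gene on the opposite strand, so reads of both could be mixed. The counted protein-coding genes among these neighbours were HASPIN at ITGAE, BLOC1S1 and METTL7B at ITGA7, and ADRM1 at LAMA5. The others were GALK1 at ITGB4, with up to 562 reads, and DLD at LAMB1, with up to 2829 reads. The authors' fold changes and p-values in the same tables were not used. A second set of deposited counts, in tables of library pairs, was never lower than the first, with a median ratio of 1.11, and served as an alternative.

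Counts were compared in edgeR 4.0.16 (R 4.3.3) by a quasi-likelihood fit without covariates, after TMM scaling and filterByExpr (minimum count 10, or 0.760 CPM). Of 15585 genes 11844 were tested, and Benjamini-Hochberg adjustment ran over all of them. The biological coefficient of variation was 12.6%. Libraries of a group differed by more than sampling noise (chi-square per degree of freedom 6.19 to 27.8). Python 3.11.15 with pandas 2.3.3 was used for the remaining steps. Alternatives were DESeq2 1.42.0, limma-voom (limma 3.58.1), DESeq2 size factors, library size only, other filters, the second counting, a replicate block, leaving out each library, and a lowess correction (span 0.3) of each library for GC content and gene length, which were known for 99.3% of tested genes. The counts and FPKM give the depth behind each value, and intervals cover counting error or the spread of 3 libraries only.

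The genes and lists were chosen with earlier results of these data known. Genes are given by library where the unadjusted p was under 0.05 or the mean was at least 50 CPM. Partners and ligands are named where the adjusted p was under 0.05, or as the 3 with the smallest p. ACTN4, NID1, FREM1, SMOC2, TNR, SPP1, IBSP, POSTN and VCAM1 of the lists were not analysed here. The values of 1 tested gene are not reported here, and it is counted among the 24 but not plotted.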

Additional observations from a re-analysis of the deposited data

How the results depend on the processing

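The count of integrin and laminin genes with an adjusted p under 0.05 was 0, and it was 4 once the GC and gene length trends were removed (the correction), 3 with the replicate block, 5 with the block and that correction (the fifth gene being ITGB4), and 0 in every fit without 1 library. At an unadjusted p under 0.05 it was 5, and 12 with the correction, 12 with the block and correction, 8 without a filter, 4 without ITGA7 (a count added after seeing the data), and 3 to 9 without 1 library. Over all genes, 171 had an adjusted p under 0.05, against 323 with DESeq2, 290 without a filter, 858 with the correction, 897 with the block, 1382 with the block and correction, and 58 to 136 without 1 library. At an unadjusted p they were 1662, 1944 without a filter, 2860 with the correction, 2546 with the block, 3332 with both, and 1061 to 1712 without 1 library. Of the adhesion partners, 1 had an adjusted p under 0.05, against 2 with DESeq2, 2 without a filter, 4 with the correction, 7 with the block, 9 with both, and 0 to 1 without 1 library. At an unadjusted p they were 8, 15 with the correction, 18 with the block and correction, and 4 to 11 without 1 library. Of the matrix ligands, 9 passed, 14 with the correction, 14 with the block, 14 with both, and 6 to 7 without 1 library, and at an unadjusted p 12 to 18 without 1 library. The cause of these moves was not tested.

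The sign of the log2 fold change was the same in all 16 alternatives for 16 tested integrin and laminin genes and turned in at least 1 for 8. With the correction it was −0.0271 for ITGA1, −0.10 for LAMA3 and −0.10 for LAMC1. With the block and correction it was −0.0274 for ITGA1, −0.0913 for LAMA3 and −0.10 for LAMC1, and without a filter it was −0.0017 for LAMC1. Without 1 library it ran from −0.0432 to 0.14 for ITGA1, −0.33 to 0.16 for ITGA2B, −0.0317 to 0.15 for ITGA5, −0.24 to 0.0834 for ITGB8, −0.21 to 0.15 for LAMA3, −0.41 to 0.0860 for LAMA5, −0.0647 to 0.15 for LAMB2 and −0.12 to 0.0731 for LAMC1.

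Libraries of the 2 groups share replicate numbers, but the labels do not say that a number marks a shared culture or day. The correlations of same-numbered libraries' deviations from their group means were 0.33, 0.07 and 0.31, so the numbers were not taken to pair them, although every library correlated best with its own number, which is a hint from the data and not the design. With the block, ITGB1, ITGA2 and LAMA1 had an adjusted p of 0.0371, 0.0229 and 0.00625 (edgeR with Benjamini-Hochberg adjustment), and 7.57% of all genes passed. The 12 genes with at most 11 reads in any library were tested only in the fit without a filter, and the 95% intervals of the tested genes had a median half-width of 0.30 (log2).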

Other observations

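ZYX, zyxin, a focal adhesion protein that is widely made, had at most 1 read in any library. ACTN4, an actin crosslinker, had 2 to 5 reads per library in the second counting and was not analysed in the first. These genes were chosen after their values were seen.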
